A study of Mus musculus with 11 samples.

Results

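The 31 genes described here mark B cells or belong to the MHC class II pathway, and were measured in RNA from purified mouse spleen T cells as a gauge of B cells left in the preparations. Each is a known B cell or class II gene and was read from the probe set that was brightest on average over the 11 arrays, among those carrying that gene symbol alone. All 31 had such a probe set, among 18194 genes measured. By role they comprise 5 genes of the antigen receptor and its products, 9 surface receptors, 4 signalling proteins, 5 transcription factors and 8 class II genes. Counted with the surface receptors are Fcrla, whose protein is intracellular, and Ly86, whose protein is the partner of a receptor.

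T cells of female C57BL6 wild-type mice and crbn-/- (knockout) mice, aged 3 to 4 months, were isolated from the spleen by negative magnetic selection, in which unwanted cells are labelled and retained. Crbn encodes cereblon, which selects substrates for a ubiquitin ligase. The cells were either naive, meaning not activated, or activated for 12 hours with plate-bound anti-CD3 at 5 µg/ml and soluble anti-CD28 at 1 µg/ml, antibodies that engage the T cell receptor complex and a costimulatory receptor. There were 3 naive and 2 activated wild-type samples and 3 naive and 3 activated knockout samples, each on its own single-colour Affymetrix array. The labels call them biological replicates and say no more about separate animals, so p-values measure the spread between these arrays. They also name no sample cultured for the same time without antibodies, so stimulation and time in culture cannot be told apart. The part of Crbn removed, and whether it was removed in cells other than T cells, is not stated in the labels.

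B cells recognise antigen through membrane immunoglobulin, whose signal is passed on by the paired chains encoded by Cd79a and Cd79b. They also take up antigen and present its peptides on MHC class II molecules, which dendritic cells and macrophages carry too and which mouse T cells largely lack. Transcription of class II genes depends on the coactivator encoded by Ciita. In the spleen B cells are abundant, so a small remainder can be visible in RNA of selected T cells.

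Values are log2 expression levels computed by the submitters with RMA, a method that summarises the probes of a probe set on a common scale. A difference of 1 on this scale is a change by a factor of 2. The level of one gene is not set against that of another, because probe sets differ in brightness. A gene is said to have risen or fallen where limma, a linear model with moderated variances over all 18194 genes, gave a Benjamini-Hochberg adjusted p under 0.05. In bulk RNA, fewer cells of a type and less RNA per cell cannot be told apart.

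Crbn was lower in every knockout array than in every wild-type array of the same state. It stood at 10.06, 10.21 and 10.09 log2 in wild-type naive, 8.97, 9.07 and 8.91 in knockout naive, 9.71 and 9.47 in wild-type activated and 8.70, 8.77 and 8.58 in knockout activated cells. The difference was -1.13 log2 in naive cells (SE 0.085, limma adjusted p = 8.7e-05) and -0.90 in activated cells (SE 0.095, limma adjusted p = 0.0041). Array medians lay between 5.84 and 5.89, and replicate arrays correlated across genes at Pearson's r between 0.994 and 0.9977. Cd3d, a chain of the T cell receptor complex, was bright on every array and lay between 12.13 and 12.98 log2.

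Several class II genes share a promoter arrangement, which is shown here for 4 members whose levels are described further on. Class II promoters are known to carry an X box followed by a Y box, the latter holding an inverted CCAAT. The bases GCAAC followed on the same strand by GATTGG, with 15 to 40 bases between them, were searched on both strands in the 250 bases before each annotated start. This pattern was chosen after these promoters had been read. It was present in 125 of 32851 promoters of the RefSeq table (0.381%), and GATTGG alone in 14.6%. Of the 24 members with a promoter in that table the pattern occurred in 4, H2-Aa, H2-Eb1, H2-Oa and H2-Ob. H2-DMa was searched and lacked it. The other 7 members, the class II genes H2-Ab1, Cd74 and Ciita among them, had no promoter there and were not searched. The 120 bases before each start are given 5′ to 3′ in the direction of the gene, from RefSeq on build GRCm38.p6, with the matched letters in capitals. They are chr17:34287824-34287943 on the minus strand for H2-Aa, and on the plus strand chr17:34305747-34305866 for H2-Eb1, chr17:34092259-34092378 for H2-Oa and chr17:34238785-34238904 for H2-Ob.
H2-Aa: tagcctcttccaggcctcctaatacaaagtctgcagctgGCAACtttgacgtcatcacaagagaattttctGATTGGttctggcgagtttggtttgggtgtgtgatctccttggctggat
H2-Eb1: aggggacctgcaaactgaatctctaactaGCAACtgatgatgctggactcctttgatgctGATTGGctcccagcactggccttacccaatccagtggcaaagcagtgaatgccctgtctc
H2-Oa: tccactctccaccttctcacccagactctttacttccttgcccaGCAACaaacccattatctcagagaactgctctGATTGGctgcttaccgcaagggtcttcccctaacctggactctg
H2-Ob: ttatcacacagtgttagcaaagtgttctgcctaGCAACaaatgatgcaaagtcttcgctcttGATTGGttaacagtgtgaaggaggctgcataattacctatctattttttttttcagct
The gap between the matched words was 27 bases in H2-Aa, 26 in H2-Eb1, 27 in H2-Oa and 24 in H2-Ob. A match of letters describes these sequences and is not evidence of binding.

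Activated cells had lower levels of antigen receptor genes, of several B cell surface receptors and of H2-Oa and H2-Ob in both genotypes, while Pou2af1 and H2-DMa were higher. In wild-type cells 15 of 31 members fell, where 20.9% of all genes tested fell, and 2 rose, where 20.2% of all genes rose. In knockout cells 16 fell, against 22.4% of all genes, and 2 rose, against 20.7%. The median difference over the 31 members was -0.48 log2 in wild-type cells, with 0.06 over all genes tested. It was -0.55 in knockout cells, with -0.03 over all genes. Lower medians were not particular to the members. Over 12 T cell markers they were -0.68 in wild-type and -0.82 in knockout cells. Over 18 macrophage and monocyte markers they were -0.55 and -0.67, whereas over 15 dendritic cell markers they were 0.16 and 0.09. The genotypes shared 14 falls (Cd79a, Cd79b, Ighm, Jchain, Cd22, Cd72, Cd37, Ly86, Fcrla, Bank1, Blk, Spib, H2-Oa and H2-Ob) and 2 rises (Pou2af1 and H2-DMa). The activation differences of the 2 genotypes share no arrays, but their p-values share a variance estimated from all 11 arrays. The calls of the genotypes are therefore not independent.

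**Figure D1:**
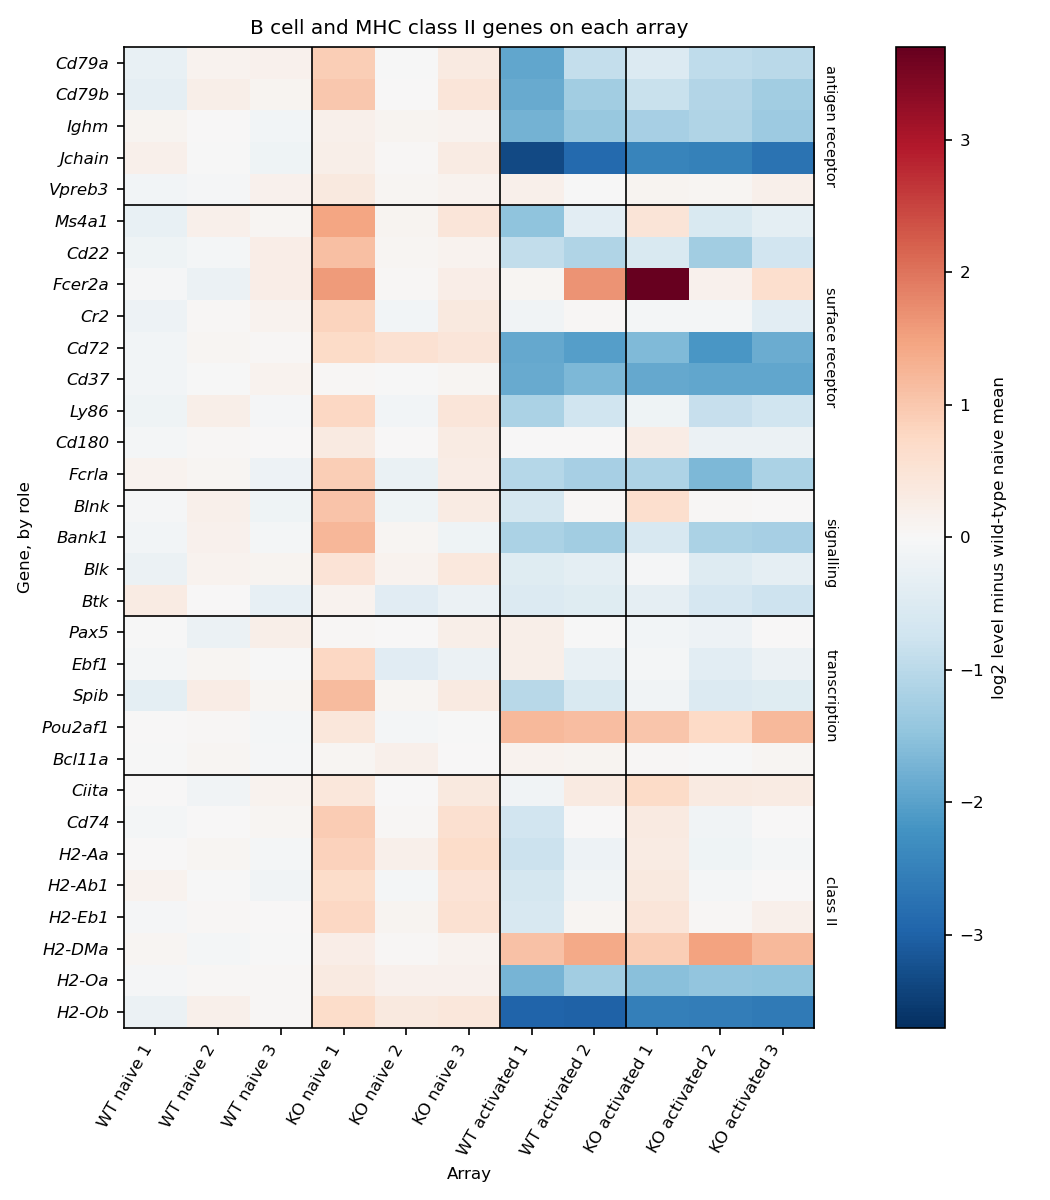
Colour shows the log2 level of each of the 31 genes on each of the 11 arrays minus that gene's mean in wild-type naive cells, with genes ordered by role (WT, wild type; KO, knockout). Jchain and H2-Ob are the deepest blue in all activated arrays, Pou2af1 and H2-DMa are red there, and the column of knockout naive array 1 is red in most rows.

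The receptor genes were among the members that fell. Cd79a, a signalling chain of the B cell antigen receptor, stood at 6.46, 6.87 and 6.90 log2 in wild-type naive, 7.66, 6.73 and 7.08 in knockout naive, 4.82 and 5.86 in wild-type activated and 6.23, 5.81 and 5.75 in knockout activated cells. It fell by 1.40 log2 in wild-type cells (SE 0.3, limma adjusted p = 0.0017) and fell by 1.23 log2 in knockout cells (SE 0.26, limma adjusted p = 0.0017). Every activated array lay below every naive array of its genotype. Its partner Cd79b stood at 8.25, 8.78 and 8.68 log2 in wild-type naive, 9.56, 8.57 and 9.01 in knockout naive, 6.70 and 7.28 in wild-type activated and 7.76, 7.50 and 7.29 in knockout activated cells. Cd79b fell by 1.59 log2 in wild-type cells (SE 0.26, limma adjusted p = 0.00022) and fell by 1.53 log2 in knockout cells (SE 0.23, limma adjusted p = 8.6e-05). Its activated arrays also lay below all naive arrays, with wild-type activated array 1 the lowest of the 11.

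Ighm, the constant region of the IgM heavy chain, stood at 13.60, 13.50 and 13.39 log2 in wild-type naive, 13.68, 13.59 and 13.63 in knockout naive, 11.75 and 12.11 in wild-type activated and 12.26, 12.38 and 12.16 in knockout activated cells. The naive arrays were tightly grouped and no activated array reached them. Ighm fell by 1.56 log2 in wild-type cells (SE 0.11, limma adjusted p = 1.5e-07) and fell by 1.36 log2 in knockout cells (SE 0.096, limma adjusted p = 8.4e-08). Jchain, the chain that joins IgM and IgA into polymers and is made by antibody-secreting cells, stood at 12.27, 12.08 and 11.92 log2 in wild-type naive, 12.31, 12.14 and 12.39 in knockout naive, 8.76 and 9.21 in wild-type activated and 9.66, 9.58 and 9.36 in knockout activated cells. It fell by 3.10 log2 in wild-type cells (SE 0.14, limma adjusted p = 6.3e-09) and fell by 2.75 log2 in knockout cells (SE 0.13, limma adjusted p = 2.4e-09). Jchain was thus 8.60-fold lower in activated wild-type cells and 6.72-fold lower in activated knockout cells, with a wide gap between states on all arrays. Vpreb3, a protein of developing B cells, passed in neither genotype and stayed between 6.06 and 6.54 log2 on all arrays.

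The surface receptors divided into genes with a clear drop and genes whose arrays scattered within a group. Cd72, an inhibitory receptor of B cells, stood at 8.50, 8.69 and 8.65 log2 in wild-type naive, 9.33, 9.18 and 9.07 in knockout naive, 6.72 and 6.58 in wild-type activated and 6.98, 6.45 and 6.77 in knockout activated cells. Cd72 fell by 1.96 log2 in wild-type cells (SE 0.13, limma adjusted p = 1.5e-07) and fell by 2.46 log2 in knockout cells (SE 0.12, limma adjusted p = 3.8e-09), which is 3.89-fold and 5.51-fold. The states did not overlap in either genotype. Cd37, a tetraspanin of lymphocytes that T cells carry as well, stood at 10.71, 10.79 and 10.94 log2 in wild-type naive, 10.84, 10.79 and 10.88 in knockout naive, 8.95 and 9.14 in wild-type activated and 8.92, 8.90 and 8.90 in knockout activated cells. Cd37 fell by 1.77 log2 in wild-type cells (SE 0.088, limma adjusted p = 1.1e-08) and fell by 1.93 log2 in knockout cells (SE 0.078, limma adjusted p = 9.2e-10). Its naive and activated arrays were far apart in both genotypes.

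Cd22, an inhibitory receptor that binds sialic acid, stood at 7.73, 7.82 and 8.15 log2 in wild-type naive, 9.02, 7.97 and 8.04 in knockout naive, 7.00 and 6.80 in wild-type activated and 7.34, 6.60 and 7.19 in knockout activated cells. It fell by 1.00 log2 in wild-type cells (SE 0.28, limma adjusted p = 0.012) and fell by 1.30 log2 in knockout cells (SE 0.25, limma adjusted p = 0.00076). The highest of the 11 arrays was knockout naive array 1. Fcrla, an intracellular Fc receptor-like protein of B cells, stood at 6.21, 6.14 and 5.89 log2 in wild-type naive, 7.00, 5.82 and 6.36 in knockout naive, 5.02 and 4.85 in wild-type activated and 4.94, 4.43 and 4.92 in knockout activated cells. It fell by 1.14 log2 in wild-type cells (SE 0.26, limma adjusted p = 0.0029) and fell by 1.63 log2 in knockout cells (SE 0.23, limma adjusted p = 5.5e-05). Its states did not overlap in either genotype. Ly86, the MD-1 partner of the receptor encoded by Cd180, stood at 8.51, 8.88 and 8.62 log2 in wild-type naive, 9.44, 8.57 and 9.11 in knockout naive, 7.50 and 7.93 in wild-type activated and 8.51, 7.83 and 7.93 in knockout activated cells. It fell by 0.96 log2 in wild-type cells (SE 0.24, limma adjusted p = 0.0061) and fell by 0.95 log2 in knockout cells (SE 0.22, limma adjusted p = 0.0026). In knockout cells the states nearly touched, since activated array 1 (8.51) stood just below naive array 2 (8.57).

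Cr2, a complement receptor of mature B cells, stood at 4.46, 4.68 and 4.77 log2 in wild-type naive, 5.46, 4.53 and 5.00 in knockout naive, 4.52 and 4.69 in wild-type activated and 4.57, 4.58 and 4.26 in knockout activated cells. It fell by 0.52 log2 in knockout cells (SE 0.18, limma adjusted p = 0.033), while the difference in wild-type cells was -0.03 log2 (SE 0.2, limma adjusted p = 0.93). Of its 11 arrays 5 lay under 4.57 log2, the lowest of the arrays' lower quartiles, so much of its range is near the dim end. Ms4a1, which encodes CD20, stood at 8.47, 8.95 and 8.83 log2 in wild-type naive, 10.21, 8.86 and 9.21 in knockout naive, 7.25 and 8.35 in wild-type activated and 9.24, 8.18 and 8.39 in knockout activated cells. It did not pass, with -0.95 log2 (SE 0.4, limma adjusted p = 0.078) in wild-type and -0.82 log2 (SE 0.36, limma adjusted p = 0.084) in knockout cells. The states overlapped in knockout cells, and replicates of Ms4a1 were more than 1 log2 apart in both knockout groups and in wild-type activated cells. A dimmer probe set of Ms4a1 fell by 1.40 log2 in wild-type cells (SE 0.48, limma adjusted p = 0.035 over all probe sets). In knockout cells that probe set differed by -0.66 log2 (SE 0.43, adjusted p = 0.26).

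Fcer2a, which encodes the low-affinity IgE receptor CD23, scattered most. It stood at 5.38, 5.20 and 5.68 log2 in wild-type naive, 6.99, 5.47 and 5.68 in knockout naive, 5.50 and 7.08 in wild-type activated and 9.10, 5.57 and 6.04 in knockout activated cells. Its standard deviation was 1.92 log2 in knockout activated cells (n = 3), the largest of any member in any group, and knockout activated array 1 at 9.10 stood far above the rest. A dimmer probe set of Fcer2a was also highest on that array of its group, at 5.80 against 4.15 and 4.51. Fcer2a did not pass, with 0.87 log2 (SE 0.82, limma adjusted p = 0.43) in wild-type and 0.86 log2 (SE 0.74, limma adjusted p = 0.4) in knockout cells. Between activated genotypes it differed by 0.61 log2 (knockout minus wild type), and by -0.49 without that array. Cd180, a Toll-like receptor relative on B cells, lay between 6.54 and 7.10 log2 on all arrays and passed in neither genotype.

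**Figure D2:**
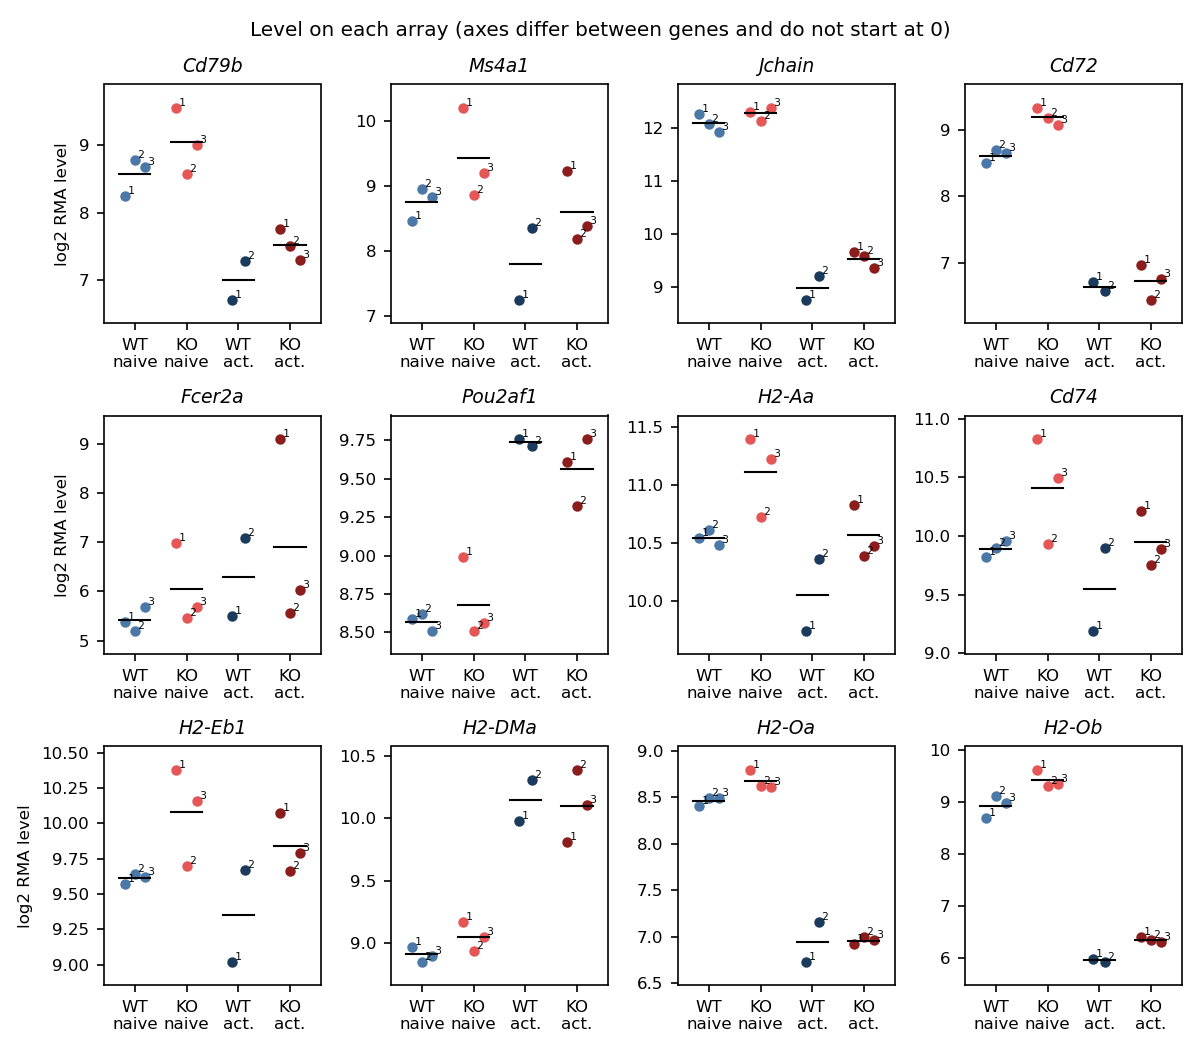
Points are the log2 level of 12 genes on each array, labelled by replicate number and grouped by genotype and state (WT, wild type; KO, knockout; act., activated), and lines are group means. The vertical axes differ between genes and do not start at 0. Jchain, Cd72, H2-Oa and H2-Ob separate by state, whereas the knockout naive and activated points of Ms4a1, Cd74, H2-Aa and H2-Eb1 overlap, with array 1 highest in each knockout group.

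Of the signalling proteins, Bank1, a scaffold of the antigen receptor, stood at 6.56, 6.80 and 6.58 log2 in wild-type naive, 7.87, 6.71 and 6.48 in knockout naive, 5.47 and 5.36 in wild-type activated and 6.06, 5.47 and 5.43 in knockout activated cells. It fell by 1.23 log2 in wild-type cells (SE 0.31, limma adjusted p = 0.0063) and fell by 1.37 log2 in knockout cells (SE 0.28, limma adjusted p = 0.0011). Apart from knockout naive array 1 at 7.87, the naive arrays of Bank1 lay between 6.48 and 6.80. Blk, a Src family kinase of B cells, stood at 7.19, 7.54 and 7.51 log2 in wild-type naive, 7.91, 7.55 and 7.80 in knockout naive, 6.97 and 7.05 in wild-type activated and 7.36, 6.92 and 7.09 in knockout activated cells. It fell by 0.41 log2 in wild-type cells (SE 0.14, limma adjusted p = 0.039) and fell by 0.63 log2 in knockout cells (SE 0.13, limma adjusted p = 0.0012). Btk, the kinase lost in X-linked agammaglobulinaemia and also present in myeloid cells, stood at 7.59, 7.32 and 6.99 log2 in wild-type naive, 7.44, 6.89 and 7.09 in knockout naive, 6.79 and 6.84 in wild-type activated and 6.96, 6.68 and 6.52 in knockout activated cells. Btk fell by 0.48 log2 in wild-type cells (SE 0.18, limma adjusted p = 0.0496), at the edge of the threshold, and differed by -0.42 log2 (SE 0.16, limma adjusted p = 0.057) in knockout cells. The adaptor gene Blnk ranged from 6.37 to 8.09 log2 and passed in neither genotype. Both its group maxima among knockout cells were on array 1, at 8.09 in naive and 7.64 in activated cells.

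The transcription factors did not move together. Spib, an Ets family factor, stood at 6.87, 7.50 and 7.29 log2 in wild-type naive, 8.39, 7.29 and 7.56 in knockout naive, 6.20 and 6.65 in wild-type activated and 7.10, 6.71 and 6.77 in knockout activated cells. It fell by 0.80 log2 in wild-type cells (SE 0.27, limma adjusted p = 0.033) and fell by 0.89 log2 in knockout cells (SE 0.24, limma adjusted p = 0.0091). Pou2af1, a coactivator of Oct factors needed for germinal centres, stood at 8.59, 8.62 and 8.51 log2 in wild-type naive, 8.99, 8.51 and 8.56 in knockout naive, 9.76 and 9.71 in wild-type activated and 9.61, 9.32 and 9.76 in knockout activated cells. Pou2af1 rose by 1.16 log2 in wild-type cells (SE 0.14, limma adjusted p = 2.3e-05) and rose by 0.88 log2 in knockout cells (SE 0.13, limma adjusted p = 7.3e-05). No activated array of Pou2af1 was as low as any naive array. Pax5, which maintains B cell identity, lay between 5.21 and 5.65 log2 and passed in neither genotype. Ebf1, an early B lineage factor, ranged from 3.86 to 5.05 and lay under 4.57 log2 on 10 of 11 arrays, so it was close to the dim end throughout. Bcl11a, a zinc finger factor of early lymphocytes, ranged from 7.83 to 8.07 by its brightest probe set and passed in neither genotype. That probe set has an _x_at name, meaning that its probes may match other transcripts. In wild-type cells 3 dimmer probe sets of Bcl11a passed, where they fell by 1.70, fell by 1.96 and fell by 2.36 log2. They also passed in knockout cells, where they fell by 1.26, fell by 1.17 and fell by 1.27 log2. The last of the 3 scattered among naive replicates. It read 6.97, 6.12 and 5.29 log2 in wild-type naive and 6.13, 4.85 and 4.44 in knockout naive cells.

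Class II genes fell into groups by function. H2-Oa and H2-Ob encode the chains of H2-O, which restrains the peptide editor H2-M and is made chiefly by B cells. H2-Oa stood at 8.41, 8.49 and 8.49 log2 in wild-type naive, 8.80, 8.62 and 8.61 in knockout naive, 6.73 and 7.16 in wild-type activated and 6.92, 7.00 and 6.97 in knockout activated cells. It fell by 1.52 log2 in wild-type cells (SE 0.11, limma adjusted p = 2.4e-07) and fell by 1.72 log2 in knockout cells (SE 0.099, limma adjusted p = 1.5e-08). H2-Ob stood at 8.70, 9.11 and 8.98 log2 in wild-type naive, 9.62, 9.30 and 9.35 in knockout naive, 5.98 and 5.93 in wild-type activated and 6.41, 6.36 and 6.32 in knockout activated cells. It fell by 2.97 log2 in wild-type cells (SE 0.12, limma adjusted p = 2.2e-09) and fell by 3.06 log2 in knockout cells (SE 0.11, limma adjusted p = 3.2e-10). H2-Ob was 7.85-fold lower in activated wild-type cells and 8.34-fold lower in activated knockout cells. Within each genotype no activated array of H2-Oa or H2-Ob came near a naive array.

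H2-DMa, a chain of the peptide editor H2-M, went the other way. It stood at 8.97, 8.85 and 8.90 log2 in wild-type naive, 9.17, 8.94 and 9.05 in knockout naive, 9.98 and 10.31 in wild-type activated and 9.81, 10.39 and 10.11 in knockout activated cells. H2-DMa rose by 1.24 log2 in wild-type cells (SE 0.15, limma adjusted p = 1.5e-05) and rose by 1.05 log2 in knockout cells (SE 0.13, limma adjusted p = 1.6e-05). Every activated array lay above every naive array of either genotype.

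By their brightest probe sets, the classical class II chains and the invariant chain differed between states by no more than 0.55 log2. H2-Aa, the alpha chain of I-A, stood at 10.54, 10.61 and 10.48 log2 in wild-type naive, 11.40, 10.72 and 11.22 in knockout naive, 9.74 and 10.36 in wild-type activated and 10.83, 10.39 and 10.47 in knockout activated cells. It fell by 0.55 log2 in knockout cells (SE 0.18, limma adjusted p = 0.027), and the difference in wild-type cells was -0.49 log2 (SE 0.2, limma adjusted p = 0.074). Its states overlapped in knockout cells but not in wild-type cells. The brightest H2-Aa probe set is also of the _x_at kind. H2-Ab1, the beta chain of I-A, stood at 9.12, 8.97 and 8.87 log2 in wild-type naive, 9.68, 8.92 and 9.49 in knockout naive, 8.33 and 8.86 in wild-type activated and 9.34, 8.93 and 8.99 in knockout activated cells. It did not pass, with -0.40 log2 (SE 0.21, limma adjusted p = 0.15) in wild-type and -0.27 log2 (SE 0.18, limma adjusted p = 0.28) in knockout cells. In each genotype the states of H2-Ab1 overlapped or nearly met.

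H2-Eb1, the beta chain of I-E, stood at 9.57, 9.64 and 9.62 log2 in wild-type naive, 10.38, 9.70 and 10.16 in knockout naive, 9.02 and 9.67 in wild-type activated and 10.07, 9.66 and 9.79 in knockout activated cells. The differences on activation were -0.26 log2 (SE 0.2, limma adjusted p = 0.33) in wild-type and -0.24 log2 (SE 0.18, limma adjusted p = 0.32) in knockout cells. C57BL6 mice lack a working alpha chain of I-E, so this transcript does not yield that surface molecule. Cd74, the invariant chain that guards the peptide groove, stood at 9.82, 9.90 and 9.96 log2 in wild-type naive, 10.83, 9.93 and 10.49 in knockout naive, 9.19 and 9.90 in wild-type activated and 10.21, 9.75 and 9.89 in knockout activated cells. It differed by -0.35 log2 (SE 0.24, limma adjusted p = 0.28) in wild-type and -0.47 log2 (SE 0.21, limma adjusted p = 0.1) in knockout cells. Ciita, the coactivator of the pathway, stood at 5.81, 5.67 and 5.93 log2 in wild-type naive, 6.21, 5.81 and 6.17 in knockout naive, 5.68 and 6.13 in wild-type activated and 6.50, 6.13 and 6.09 in knockout activated cells. It differed by 0.10 log2 (SE 0.16, limma adjusted p = 0.66) in wild-type and 0.18 log2 (SE 0.14, limma adjusted p = 0.38) in knockout cells, and its states overlapped in both. A dimmer probe set of Ciita rose by 0.34 log2 in knockout cells (SE 0.11, limma adjusted p = 0.022 over all probe sets). In wild-type cells that probe set differed by 0.09 log2 (SE 0.12, adjusted p = 0.62). Another probe set of Ciita passed in neither genotype. The 4 promoters printed above therefore belong to 2 genes that fell in both genotypes, H2-Oa and H2-Ob, 1 that fell in knockout cells, H2-Aa, and 1 that passed in neither, H2-Eb1.

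**Figure D3:**
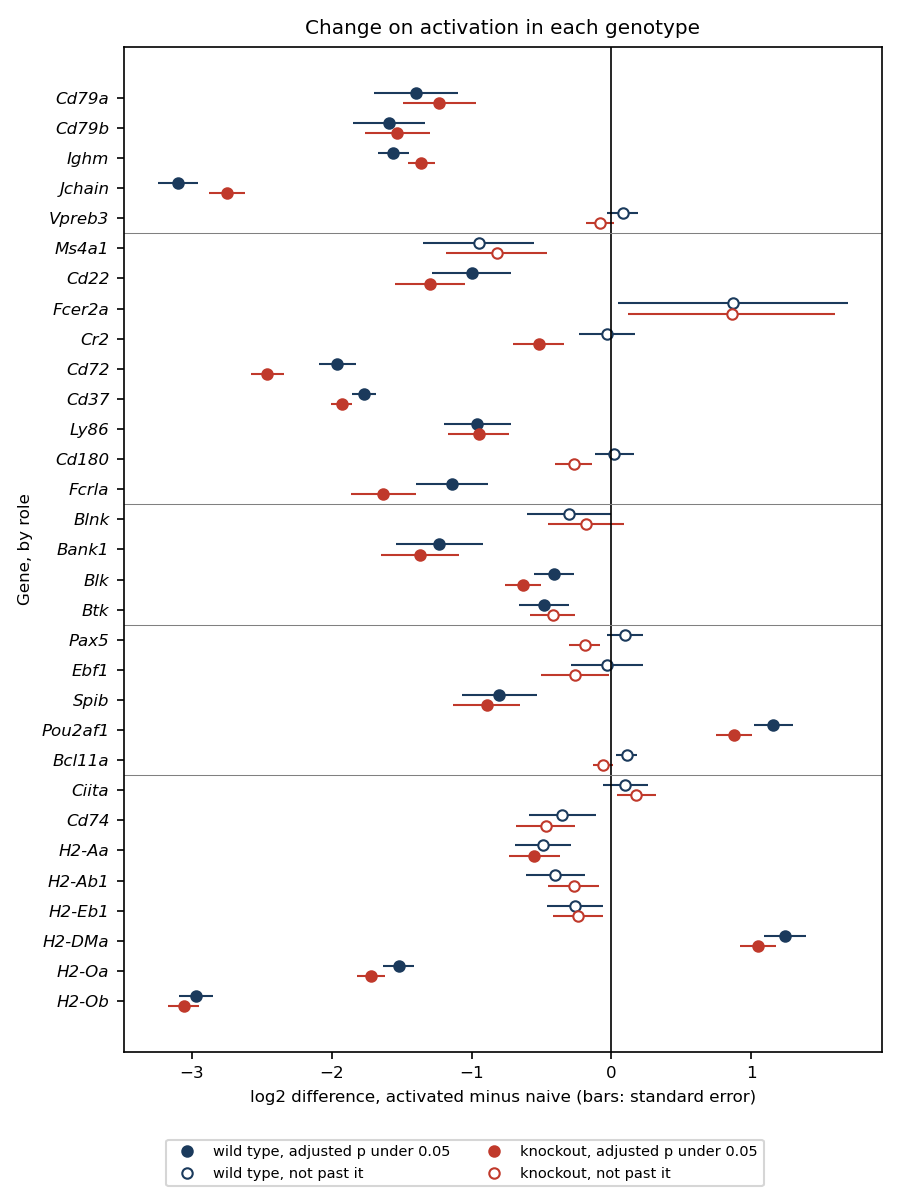
Points are limma differences in log2, activated minus naive, for the 31 genes by role in wild-type and knockout cells, with bars of 1 standard error. Filled points have an adjusted p under 0.05 and open points do not. H2-Ob and Jchain lie farthest to the left and Pou2af1 and H2-DMa are the only filled points to the right of 0.

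Some of these calls rested on single arrays. In wild-type cells the adjusted p (limma) rose past the threshold without activated array 2 for Bank1 (-1.17 log2, adjusted p = 0.055) and Cd22 (-0.90, adjusted p = 0.095), and without activated array 1 for Ly86 (-0.75, adjusted p = 0.093). Spib was lost without wild-type activated array 1 (-0.57, adjusted p = 0.27), wild-type naive array 2 (-0.66, adjusted p = 0.11) or wild-type naive array 3 (-0.76, adjusted p = 0.071). Blk was lost without wild-type activated array 1 (-0.37, adjusted p = 0.18), wild-type activated array 2 (-0.45, adjusted p = 0.096), wild-type naive array 2 (-0.34, adjusted p = 0.12), wild-type naive array 3 (-0.36, adjusted p = 0.099) or knockout activated array 3 (-0.41, adjusted p = 0.0504). Btk was lost without wild-type naive array 1 (-0.34, adjusted p = 0.17), wild-type naive array 2 (-0.48, adjusted p = 0.10), wild-type activated array 1 (-0.46, adjusted p = 0.19), wild-type activated array 2 (-0.51, adjusted p = 0.14), knockout naive array 3 (-0.48, adjusted p = 0.059) or knockout activated array 2 (-0.48, adjusted p = 0.065). In knockout cells Cr2 was lost without knockout naive array 1 (-0.29, adjusted p = 0.14), knockout naive array 3 (-0.52, adjusted p = 0.069) or knockout activated array 3 (-0.42, adjusted p = 0.13). H2-Aa was lost without knockout naive array 1 (-0.40, adjusted p = 0.11), knockout naive array 3 (-0.49, adjusted p = 0.084), knockout activated array 2 (-0.46, adjusted p = 0.11) or knockout activated array 3 (-0.50, adjusted p = 0.084). The other 11 wild-type and 16 knockout calls held with each array left out in turn.

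Calls were also gained. Ms4a1 passed in wild-type cells without wild-type activated array 2 (-1.49 log2, limma adjusted p = 0.032) or knockout naive array 1 (-0.95, adjusted p = 0.033), and in knockout cells without knockout activated array 1 (-1.14, adjusted p = 0.024) or knockout naive array 2 (-1.11, adjusted p = 0.032). H2-Aa passed in wild-type cells without wild-type activated array 2 (-0.80, adjusted p = 0.019) or knockout naive array 2 (-0.49, adjusted p = 0.036). Without knockout naive array 2, Cd74 (-0.71, adjusted p = 0.0095), H2-Ab1 (-0.50, adjusted p = 0.025), Cd180 (-0.37, adjusted p = 0.037) and Btk (-0.54, adjusted p = 0.024) passed in knockout cells. Without knockout activated array 1, Cd180 (-0.43, adjusted p = 0.004) and Btk (-0.53, adjusted p = 0.027) passed there, and Btk also without wild-type naive array 1 (-0.42, adjusted p = 0.034) or 3 (-0.42, adjusted p = 0.033).

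Knockout against wild type in naive cells gave no call in the fit to all arrays with equal weights and no block for replicate number. Of the 31 members 0 passed the limma threshold, 6 had an unadjusted p under 0.05 (19.4%; 14.5% of all genes), and the lowest adjusted p was 0.092, while 0.148% of all genes tested passed. The point estimates nevertheless lay above 0 for 30 of 31 members (96.8%), where 52.1% of all genes did. With the mean of the probe sets of each gene, 27 of 31 estimates lay above 0. By the brightest probe sets the median estimate was 0.36 log2, with 0.01 over all genes, and estimates ranged from -0.16 for Btk to 0.68 for Ms4a1. Over neutrophil markers the median was 0.40 log2 and over NK cell markers 0.21. It was 0.11 over 23 further B cell receptor pathway genes, 0.03 over 17 further class II pathway genes and -0.03 over markers of antibody-secreting cells. For dendritic cell, macrophage and monocyte, T cell and erythroid markers it was 0.06, 0.05, 0.06 and -1.48. In 6 members every knockout array was above every wild-type array, an arrangement found in 9.94% of all genes. They were Cd72 with a difference of 0.58 log2 (SE 0.12, limma adjusted p = 0.092), H2-Ob with 0.49 log2 (SE 0.11, limma adjusted p = 0.099), H2-Aa with 0.57 log2 (SE 0.18, limma adjusted p = 0.2), H2-Eb1 with 0.47 log2 (SE 0.18, limma adjusted p = 0.26), Blk with 0.34 log2 (SE 0.13, limma adjusted p = 0.26) and H2-Oa with 0.21 log2 (SE 0.099, limma adjusted p = 0.35). For Blk, H2-Eb1 and H2-Aa the lowest knockout array exceeded the highest wild-type array by little, at 7.55 against 7.54, 9.70 against 9.64 and 10.72 against 10.61.

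A single array carried much of that difference. Knockout naive array 1 was the highest of the 6 naive arrays for 26 of 31 members (83.9%), and for 13.2% of all genes tested. All 8 class II genes and 8 of 9 surface receptors were highest there. Taken as the median over members of the deviation from the wild-type naive mean, it stood at 0.72 log2, knockout naive array 2 at 0.03 and array 3 at 0.31, and the wild-type naive arrays at -0.07, 0.05 and 0.02. Knockout naive array 2 was therefore near the wild-type arrays. Members spread more than other genes in this group: their median SD was 0.345 log2, against 0.083 over all genes. Without array 1 the median difference was 0.16 log2, with 27 of 31 estimates above 0 and 0 calls. Without knockout naive array 2 it was 0.55, and with array weights 0.21. Cd72 passed when knockout activated array 2, which enters only the shared variance, was left out (0.58, limma adjusted p = 0.0483), and H2-Ob (0.35, adjusted p = 0.036) and Cd72 (0.54, adjusted p = 0.012) passed with array weights.

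The same array was high for neutrophil and NK cell markers but not for every marker list. The granule gene S100a8 read 8.49 log2 on knockout naive array 1 and 5.04 to 6.28 on the other naive arrays, and S100a9 read 8.51 against at most 5.95. Not all neutrophil markers followed. Mpo read 7.19 on that array, against 6.79 to 8.34 on the wild-type naive arrays. Elane read 5.48 there, against 5.50 to 5.79. Lyz2, lysozyme of myeloid cells, read 8.60 there and at most 7.00 on any other array, but the median deviation of that array over all 18 macrophage and monocyte markers was 0.05 log2. Over all 8 measured neutrophil markers the median deviation of that array was 1.11 log2, and over 7 NK cell markers it was 0.64. It was 0.03 over 15 dendritic cell markers, 0.13 over 9 markers of antibody-secreting cells and 0.12 over 23 further B cell receptor pathway genes. Those 23 genes were mixed. Fcmr read 9.81 there and 8.11 to 9.13 on the other naive arrays, Siglecg 7.65 and 6.40 to 7.10, and Tnfrsf13c 7.63 and 6.64 to 6.99. In contrast, Cd81 read 8.95 there and 9.10 to 9.55 on the wild-type naive arrays, and Vav1 8.98 and 8.98 to 9.13. The summed signal of the neutrophil markers ranged from 459 to 1534 on the knockout naive arrays and from 572 to 693 on the wild-type naive arrays, and that of the NK cell markers from 6209 to 9538 and from 6453 to 7155. Among the neutrophil markers 0 passed between naive genotypes, and of the 7 NK cell markers Klra8 alone was higher in knockout cells (0.94 log2, SE 0.16, limma adjusted p = 0.038). Over 8 erythroid markers the naive arrays deviated by -1.90 to 0.82 log2, with wild-type naive array 1 the highest, and 0 passed. Over 12 T cell markers the naive arrays deviated by -0.09 to 0.10 log2. What part these other cells have in the members' values was not tested.

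In activated cells the knockout estimates were again mostly positive and again no member passed. With limma 0 of 31 passed, 6 had an unadjusted p under 0.05 (19.4%; 6.90% of all genes) and the lowest adjusted p was 0.33, while 0.0605% of all genes tested passed. The estimates lay above 0 for 21 of 31 members (67.7%), where 43.6% of all genes did, with a median of 0.23 log2 against -0.02. Every knockout array was above both wild-type arrays in 7 members (Cd79b, Ighm, Jchain, Spib, H2-Aa, H2-Ab1 and H2-Ob), an arrangement found in 7.37% of all genes. In 2 members, Cd37 and Bcl11a, every knockout array was below both, as in 12.0% of all genes. Jchain had a difference of 0.55 log2 (SE 0.14, limma adjusted p = 0.33), H2-Ob of 0.41 log2 (SE 0.12, limma adjusted p = 0.44) and Ighm of 0.34 log2 (SE 0.11, limma adjusted p = 0.5).

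Arrays again weighed unevenly. Knockout activated array 1 was the highest of the 5 activated arrays for 20 of 31 members (64.5%; 12.6% of all genes), and wild-type activated array 1 was the lowest for 15 (48.4%; 29.6% of all genes). The median difference was 0.05 log2 without the former, with 18 of 31 estimates above 0, and was 0.12 without the latter, with 20 above 0. Without knockout activated array 3 it was 0.35. With the mean of the probe sets of each gene it was 0.12, and among the 22 members above the median level it was 0.36. Jchain and H2-Ob still differed by 0.49 and 0.38 log2 without knockout activated array 1. Nothing in the labels ties knockout naive array 1 and knockout activated array 1 to the same animal.

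**Figure D4:**
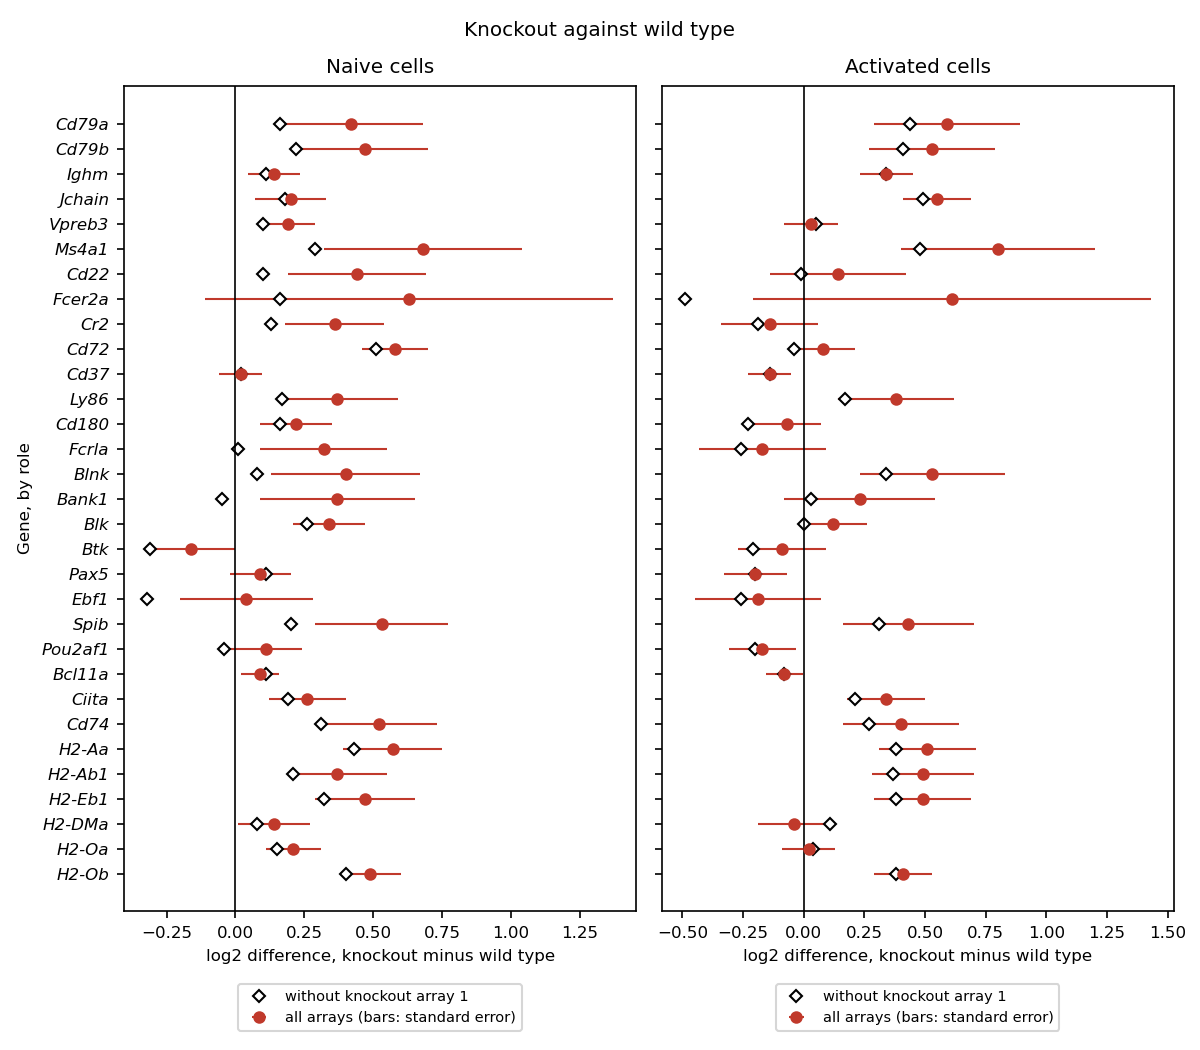
Red points are limma differences in log2, knockout minus wild type, in naive and activated cells with bars of 1 standard error, and open diamonds are the values without array 1 of the knockout group. No point has an adjusted p under 0.05. In naive cells all points but that of Btk lie right of 0, and most diamonds lie closer to 0 than their points.

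Whether activation changed the members differently in the genotypes was tested as an interaction. With limma 0 of 31 members passed and 0% of all genes tested did, with 1 member at an unadjusted p under 0.05 (3.23%; 13.8% of all genes). The lowest adjusted p was 0.29, for Cd72 at -0.50 log2 (knockout change minus wild-type change). The calls of Btk, Cr2 and H2-Aa in 1 genotype alone are therefore not shown to differ between genotypes, with interactions of 0.07 log2 (SE 0.24, limma adjusted p = 0.92), -0.50 log2 (SE 0.27, limma adjusted p = 0.43) and -0.06 log2 (SE 0.27, limma adjusted p = 0.94).

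Other genes of these pathways, listed from general knowledge, moved both ways on activation. Of 23 further B cell receptor pathway genes measured, 5 rose in each genotype, and 10 fell in wild-type and 13 in knockout cells. Irf8, a regulator of B cell and myeloid development, rose by 2.71 log2 in wild-type (limma adjusted p = 1.6e-08) and 2.86 in knockout cells (adjusted p = 1.6e-09). Fcmr, the Fc receptor for IgM, fell by 2.51 log2 in wild-type (limma adjusted p = 1.8e-05) and fell by 2.94 in knockout cells (adjusted p = 9.2e-07). Cd83, an activation marker that is also on the dendritic cell list, rose by 2.40 log2 in wild-type (adjusted p = 4.2e-07) and 2.55 in knockout cells (adjusted p = 4.5e-08). Cd24a, the heat-stable antigen, fell by 1.68 log2 in wild-type cells (adjusted p = 0.017) and differed by -0.65 in knockout cells (adjusted p = 0.29), with an interaction that did not pass (adjusted p = 0.50). Of 17 further class II pathway genes 0 rose and 9 fell in each genotype. H2-DMb2 was near the threshold without passing, at 0.63 log2 in wild-type (limma adjusted p = 0.05 after rounding) and 0.53 in knockout cells (adjusted p = 0.064). Ctss, the protease that trims the invariant chain and is also on the macrophage list, fell by 1.07 log2 in wild-type (limma adjusted p = 1.3e-07) and fell by 1.26 in knockout cells (adjusted p = 5.3e-09). The legumain gene Lgmn fell by 0.99 and fell by 1.00 log2 (adjusted p = 4.6e-07 and 7.4e-08), and Creb1, a factor known to bind class II promoters, fell by 0.90 and fell by 0.82 log2 (adjusted p = 1.1e-06 and 4.6e-07). The costimulatory ligand gene Cd86 fell by 1.00 log2 in wild-type cells (adjusted p = 1.3e-05) and fell by 0.51 in knockout cells (adjusted p = 0.0012).

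Markers of antibody-secreting cells, the source of Jchain in blood and tissue, gave 3 falls and 1 rise of 9 measured in each genotype. Igha, the IgA heavy chain, fell by 2.81 log2 in wild-type (limma adjusted p = 1.3e-06) and fell by 2.94 in knockout cells (adjusted p = 1.8e-07). Iglv1, a lambda light chain segment, fell by 2.86 log2 (adjusted p = 2e-07) and fell by 2.11 (adjusted p = 5.3e-07). Mzb1, a chaperone of antibody secretion, fell by 0.88 log2 (adjusted p = 0.001) and fell by 0.83 (adjusted p = 0.00055). Xbp1, a factor of the secretory response, rose by 0.63 log2 (adjusted p = 0.0001) and 0.50 (adjusted p = 0.00019). Summed signal of the 9 markers lay between 7188 and 11608 on naive arrays and between 4916 and 5398 on activated arrays. Without Xbp1, the brightest of them on average over the 11 arrays, it lay between 4828 and 9171 and between 1669 and 2150. On the wild-type naive arrays Igha read higher than Xbp1, at 12.46, 12.04 and 11.56 log2. Derl3, Prdm1, Sdc1, Tnfrsf17 and Txndc5 passed in neither genotype, so the sums do not show a fall of all 9 markers.

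Markers of other cells that carry class II molecules also moved with activation. Of 18 macrophage and monocyte markers 13 fell and 0 rose in each genotype, and their summed signal was 5618 to 6543 on naive and 2822 to 2987 on activated arrays. Ctss alone made up 59.5% to 72.8% of that sum, and without it the sum was 1558 to 2335 on naive and 970 to 1178 on activated arrays. Tyrobp, a myeloid signalling adaptor, fell by 1.52 log2 in wild-type (limma adjusted p = 4e-05) and fell by 1.47 in knockout cells (adjusted p = 1.4e-05). Of 15 dendritic cell markers 5 rose in each genotype, and 3 fell in wild-type and 2 in knockout cells, with a summed signal of 5028 to 5484 on naive and 6669 to 9277 on activated arrays. Without Ccr7, a chemokine receptor that T cells carry as well, that sum was 2002 to 2269 and 3416 to 5697. Ccl22, a chemokine, rose by 2.70 log2 in wild-type (limma adjusted p = 2.2e-08) and 3.27 in knockout cells (adjusted p = 8.8e-10). Fscn1, an actin-bundling protein, rose by 2.42 (adjusted p = 4.4e-07) and 3.12 log2 (adjusted p = 8.9e-09). Ccl17 was the only marker on these 2 lists that passed between genotypes, 0.82 log2 higher in the knockout than in the wild type after activation (limma adjusted p = 0.018). Of 12 T cell markers 10 fell in each genotype as well, Thy1 by the most, where it fell by 1.66 log2 in wild-type (adjusted p = 1.5e-06) and fell by 1.61 in knockout cells (adjusted p = 4e-07). Of 8 neutrophil markers 2 fell in each genotype, of 7 NK cell markers 3 fell in wild-type and 4 in knockout cells with 1 rise in each, and of 8 erythroid markers 5 fell in wild-type and 1 in knockout cells. What part these cell types have in the changes of H2-DMa, H2-Aa and the other class II genes was not tested.

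Other probe sets of the same genes bear on the activation calls. The 31 members had 35 further probe sets. Of those belonging to members that passed, 12 of 15 had the same direction in wild-type and 18 of 18 in knockout cells. The remaining wild-type probe sets all belonged to Ighm, which has 11 in total. They differed by 0.14, 0.05 and 0.04 log2 and did not pass. In the opposite direction 0 passed in either genotype. A further 5 in wild-type and 4 in knockout cells passed where the brightest probe set of the gene had not, the Bcl11a probe sets above among them. The others in wild-type cells were the dimmer Ms4a1 probe set and an H2-Aa probe set (-0.64 log2, limma adjusted p = 0.022). In knockout cells the other was the Ciita probe set that rose.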

How the data were processed

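Total RNA of 11 samples of splenic T cells was labelled with biotin and measured on single-colour arrays. The deposited log2 values of 45101 probe sets were computed by the authors with RMA in Partek from GCOS files, per the submitters' processing notes; versions and settings were not given in the sources used here. They ranged from 2.32 to 15.0 and were used as deposited. RMA fits all arrays together and compresses low values, so differences of dim genes can be understated. The number of arrays limits the precision, and 0 columns of the table were left unused.

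Of the probe sets 34958 carried 1 gene symbol, 932 several and 9211 none in the platform annotation. Symbols were checked by Entrez number against a RefSeq table of GRCm38.p6, which matched 34754 and changed 0. Each of 18194 genes was represented by its brightest probe set. Group means were fitted to all 11 arrays with limma 3.58.1 in R 4.3.3 (residual degrees of freedom 7, prior 5.46), with no blocking by replicate number, and p-values were adjusted by Benjamini-Hochberg over all genes of each of 5 comparisons. The fit was tested on simulated data. Tables and plots used Python 3.11.15, pandas 2.3.3 and matplotlib 3.10.9. The members, the 9 lists of other pathway and marker genes, the tests and the rule for naming were chosen with earlier results of these data known. Every member is named. Values on every array are given for members that passed in any comparison and for Cd79a, Cd79b, Ms4a1, Cd74, H2-Aa, H2-Ab1, H2-Eb1 and Ciita, with Crbn as a check, and up to 4 members of each other list among those of largest difference past the threshold; values of Fcer2a, Lyz2, S100a8, S100a9 and Cd3d were added after they were seen. Alternatives were other probe set rules, adjustment over all probe sets, only bright genes, a variance trend with a robust prior, only the compared arrays, array weights, quantile normalization again, median centring, a replicate block and leaving out each array; leaving out both knockout arrays numbered 1 was added after seeing the data.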

Additional observations from a re-analysis of the deposited data

Results flagged for a closer look

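By its brightest probe set alone, and without passing the test, Bcl11a deviated in opposite directions, since each activated wild-type array lay above the wild-type naive mean and each activated knockout array lay below the knockout naive mean. The wild-type change was 0.11 log2 (SE 0.077, limma adjusted p = 0.30) and the knockout change -0.06 (SE 0.069, limma adjusted p = 0.56). Read the other way, the activated knockout arrays lay below the activated wild-type mean and the naive knockout arrays above the naive wild-type mean. The difference of these changes was -0.17 log2 in both readings, and the interaction did not pass (limma adjusted p = 0.48). Other probe sets go against opposite directions: 3 of them fell in both genotypes. With the mean of its probe sets Bcl11a fell by 0.59 log2 in knockout cells (limma adjusted p = 0.022), and with the most variable one it fell by 1.27 (limma adjusted p = 0.025).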

How the results depend on the processing

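Most values changed little under the alternatives. Of 2692 values 2516 were counted as unchanged, 41 lost the threshold and 30 passed it. A further 103 moved by more than the spread between replicates. Estimates that had not passed could change sign. Without knockout naive array 3, 29 of 31 estimates between naive genotypes lay above 0, against 30 with all arrays. In wild-type activation 11 of 17 calls and in knockout activation 16 of 18 held under every alternative run. The exceptions were Bank1, Blk, Btk, Cd22, Ly86 and Spib in wild-type and Cr2 and H2-Aa in knockout cells. Only Bcl11a was counted as reversed, in wild-type activation. It went from 0.11 log2 to -0.91 with the mean of its probe sets and to -2.36 with its most variable probe set. These replace the brightest one by construction. Fcer2a also changed sign between activated genotypes without knockout activated array 1, and did not pass. Members called between naive genotypes numbered 0, but 2 under array weights (Cd72 and H2-Ob), when genes higher in knockout cells rose from 14 to 571 over all genes, and 1 with the replicate block (Cd72, limma adjusted p = 0.038); the cause was not tested. Leaving out each array in turn gave 0 to 1 such calls, 13 to 18 calls in wild-type activation, and 16 to 23 in knockout activation. Without both knockout arrays numbered 1, chosen after seeing the data, the median differences were 0.16 log2 in naive and 0.05 in activated cells, with 0 calls. Nothing in the labels pairs arrays by replicate number. Correlations of the arrays' deviations from their group means cannot decide it, because deviations within a group sum to 0. With 2 wild-type activated arrays the deviations are mirror images, and in groups of 3 the correlations constrain each other. Same-numbered wild-type naive and activated arrays had r of -0.30 and -0.18, and the mirrored pairs had 0.30 and 0.18. Same-numbered knockout naive and activated arrays correlated at 0.27, 0.09 and 0.22, each best with its own number, and same-numbered naive arrays of the genotypes at 0.39, 0.02 and 0.31, against -0.35 to 0.12 for different numbers. With the number as a block the naive genotype calls over all genes went from 14 higher and 13 lower to 73 and 204, and 16 members were called in wild-type and 19 in knockout activation. Restricting the test to genes above the median level kept 22 members. Dim probe sets, such as those of Ebf1 and Cr2, limit what can be seen.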
